A study of Mus musculus with 48 samples.

Results

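Genes for the nuclear-encoded part of the mitochondrial respiratory chain and ATP synthase were followed in nascent RNA of mouse embryonic stem cells. They were the rows of the gene count table whose symbol begins with Nduf followed by a, b, c, s or v, with Uqcr, with Cox4 to Cox8 or with Atp5, together with Sdha to Sdhd and Cyc1. Of 107 matching names, 9 that end as pseudogene names were left out, which gave 98 of 55376 genes. By the complex their product belongs to, 47 were of complex I, 4 of complex II, 9 of complex III, 21 of complex IV and 17 of complex V. The rule also takes in 8 assembly factors of complex I, the Ndufaf genes, and Ndufa4 and Ndufa4l2, whose products are found in complex IV. Symbols were kept as the files give them, so subunits of ATP synthase carry their older Atp5 names.

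The cells were the line TCF2.2, kept without feeders in serum-free 2i medium and labelled as strain C57BL/6, and there were 2 libraries in each of 4 groups. The first group received 10 µM BRM014, an inhibitor of the ATPases BRG1 and BRM, for 3 h, and its control received the solvent DMSO for 3 h. Another group was transduced with lentivirus carrying an shRNA against Chd4, and its control with a scrambled shRNA. These last 2 groups were kept for 24 h in medium with 1.5 µg/mL puromycin. In all 4 groups RNA made during 5 min with 500 µM 4-thiouridine was captured, after ERCC RNA had been added in proportion to the number of cells. The series text calls the replicates biological duplicates, without saying that they came from separate cultures or transductions, so p-values measure only the spread between these libraries.

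The respiratory chain passes electrons from NADH (complex I) or succinate (complex II) to ubiquinone, then through complex III and cytochrome c to oxygen at complex IV, while protons are pumped across the inner mitochondrial membrane. Complex V, ATP synthase, makes ATP as the protons flow back. Each complex except complex II combines subunits encoded in the nucleus with subunits encoded in mitochondrial DNA. Most core subunits carry the redox centres or the catalytic sites, and the accessory subunits, many of them small, surround the core and help to assemble and hold it. In complex III the core class used here also takes in Uqcrc1 and Uqcrc2, which are core proteins by name. Mouse embryonic stem cells in 2i use respiration alongside glycolysis.

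The promoters of 4 genes are printed here because these genes turned up at the ends of the comparisons below. Uqcrfs1 and Sdhd had the lowest log2 fold changes of all members between the libraries labelled Chd4 shRNA and scrambled shRNA, Ndufa3 had the highest one in complex I, and Atp5k was the sole member called with BRM014. Each sequence is a RefSeq window on build GRCm38.p6 from 250 bases before to 50 bases after the annotated start, printed 5′ to 3′ on the strand of the gene. Capitals mark matches to the NRF1 motif, which is GCGCA followed directly by its reverse complement TGCGC, the ETS motif CCGGAAG, which is read by factors such as GABP, or the YY1 motif AAGATGGC, on either strand. The windows are chr13:30545267-30545566 (minus strand) for Uqcrfs1, chr9:50603800-50604099 (minus strand) for Sdhd, chr7:3617123-3617422 (plus strand) for Ndufa3 and chr5:108434350-108434649 (minus strand) for Atp5k.
Uqcrfs1: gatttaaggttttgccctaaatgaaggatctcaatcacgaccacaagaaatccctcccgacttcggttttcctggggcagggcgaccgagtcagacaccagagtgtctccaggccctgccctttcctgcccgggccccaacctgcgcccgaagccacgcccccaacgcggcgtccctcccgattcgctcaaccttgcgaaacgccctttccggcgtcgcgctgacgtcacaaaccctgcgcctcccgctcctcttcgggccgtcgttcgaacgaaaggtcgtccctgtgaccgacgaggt
Sdhd: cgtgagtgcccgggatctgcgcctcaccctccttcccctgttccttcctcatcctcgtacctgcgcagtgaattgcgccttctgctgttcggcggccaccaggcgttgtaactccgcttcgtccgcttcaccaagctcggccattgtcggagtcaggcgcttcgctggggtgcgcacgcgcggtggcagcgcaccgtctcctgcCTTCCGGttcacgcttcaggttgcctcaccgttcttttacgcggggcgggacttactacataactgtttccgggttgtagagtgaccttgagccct
Ndufa3: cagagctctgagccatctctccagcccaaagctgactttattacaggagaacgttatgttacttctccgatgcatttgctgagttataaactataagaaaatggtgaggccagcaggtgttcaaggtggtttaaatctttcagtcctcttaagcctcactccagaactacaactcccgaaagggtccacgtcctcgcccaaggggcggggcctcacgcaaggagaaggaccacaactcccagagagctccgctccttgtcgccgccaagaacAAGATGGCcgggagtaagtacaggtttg
Atp5k: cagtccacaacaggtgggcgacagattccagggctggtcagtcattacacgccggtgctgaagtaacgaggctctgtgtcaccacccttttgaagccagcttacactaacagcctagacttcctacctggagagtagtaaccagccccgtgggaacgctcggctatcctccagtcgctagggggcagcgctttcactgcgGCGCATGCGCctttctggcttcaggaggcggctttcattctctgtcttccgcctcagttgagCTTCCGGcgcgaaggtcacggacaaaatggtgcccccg
None of these letters occur in the Uqcrfs1 window. Sdhd has an ETS match on the opposite strand, Ndufa3 a YY1 match just after the start, and Atp5k an NRF1 match before and an ETS match after the start.

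The 8 libraries held between 6982354 and 17128981 counts over all genes, and the genes described here took between 1.17% and 2.25% of them. Counts per kb of exon on 1435 olfactory and vomeronasal receptor genes, which these cells are not known to use, were taken as background. Spread over all exons, this background amounted to 11.9% and 13.6% of the counts in the libraries labelled Chd4 shRNA, against 1.45% to 2.38% in the other 6. The Chd4 gene itself had 118 and 124 CPM (counts scaled to a common library size) in the libraries labelled Chd4 shRNA and 91.9 and 70.5 in scrambled libraries, a log2 fold change of 0.57 ± 0.16 (edgeR quasi-likelihood test, Benjamini-Hochberg adjusted p = 0.00532). The counts therefore do not show the knock-down, and since an shRNA acts on mature RNA, nascent counts are no direct measure of it. Below, "with Chd4 shRNA" stands for the libraries that carry this label. Of 9 pluripotency genes, 9 were expressed in these libraries, with summed levels of 1724 to 1804 CPM in libraries labelled Chd4 shRNA and 2825 to 3026 CPM in scrambled libraries. None of 6 fibroblast markers passed the expression filter, at 64.9 to 79.7 CPM in all with Chd4 shRNA and 8.78 to 11.8 CPM with scrambled shRNA. Background alone would give 49.2% to 127% of the counts of each of these 6 genes with Chd4 shRNA. Markers of endoderm had 17.2 to 19.4 CPM with Chd4 shRNA against 3.88 to 4.91 CPM with scrambled shRNA. Those of mesoderm had 17.4 to 19.8 CPM against 1.82 to 3.42 CPM. In both lists 0 genes passed the filter, and background alone would give 71.8% to 144% of each gene's counts with Chd4 shRNA. Neural markers summed to 36.7 to 44.3 CPM against 28.7 to 33.1 CPM, and trophoblast markers to 24.5 to 26.1 CPM against 16.6 to 20.9 CPM. The expressed genes of these lists were Tubb3 (log2 fold change -0.35, not called) and Tfap2c (-0.69, called lower). What part the background or these markers have in the results below was not tested, except where values after background subtraction are given. In bulk RNA fewer cells of a type and less RNA per cell cannot be told apart.

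Levels are given as CPM of a library size scaled by TMM among expressed genes, and, between genes, as RPKM, the CPM divided by the kb of exon. Expressed genes were those with an average over all libraries of 10-fold background or more, which held for 8272 genes and for 92 of the 98 described here. Changes are therefore relative to the other expressed genes. With library sizes from ERCC RNA, the median log2 fold change of all expressed genes moved by 0.14 (ERCC totals after TMM), 0.00 (plain ERCC sums) and 0.07 (the 4 abundant ERCC RNAs) in the BRM014 comparison. In the Chd4 shRNA comparison it moved by 0.19, 0.59 and 0.50. TMM over all 35426 genes that pass the edgeR filter on low counts, most of them near background, moved it by 0.06 and -1.34.

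In DMSO libraries the 92 expressed genes spanned 2.91 to 763 RPKM, with a median of 89.5. By complex, the median level in DMSO libraries was 50.4 RPKM over 46 genes of complex I, 50.7 over 4 of complex II, 183 over 9 of complex III, 292 over 16 of complex IV and 121 over 17 of complex V. The highest levels belonged to small accessory subunits. Cox6b1, a subunit on the outer face of complex IV, had 778 ± 43 RPKM with BRM014 and 763 ± 91.3 with DMSO (SD, n = 2 each). Uqcr10, an accessory subunit of complex III, had 667 ± 30.8 RPKM with BRM014 and 717 ± 166 with DMSO, and Cox8a, a small membrane subunit of complex IV, had 728 ± 47.1 and 702 ± 57.6. These 3 genes overlapped within their SDs in DMSO libraries, so their order is not resolved.

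Where a subunit has isoforms, the widely used gene was above its tissue-specific relatives. Cox4i1, the main form of subunit 4, had 405 ± 24.6 RPKM with BRM014, 459 ± 93.5 with DMSO, 394 ± 2.9 with Chd4 shRNA and 331 ± 24.7 with scrambled shRNA. Its relative Cox4i2, known from lung, had 0.493 ± 0.123, 0.294 ± 0.193, 1.64 ± 0.276 and 0.289 ± 0.204 RPKM in the same order of groups. The 3 lowest levels with DMSO were those of Cox8c (0.253 ± 0.166 RPKM), Cox4i2 and Ndufa4l2 (0.74 ± 0.317 RPKM), which overlap within their SDs. Cox4i2, Cox6a2 and Cox8b (known from heart and skeletal muscle), Cox8c (known from testis), Ndufa4l2 (known from hypoxic cells) and Ndufa11b did not pass the expression filter. Cox6a2 had 16 and 13 counts with BRM014, 12 and 9 with DMSO, 35 and 40 with Chd4 shRNA and 6 and 4 with scrambled shRNA, and background alone would give 12.7% of the counts with Chd4 shRNA. For Cox4i2, Cox8b, Cox8c and Ndufa4l2 that share was 68.9%, 101%, 71.2% and 56.7%, so most of what was counted there lies at the background level.

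The testis form Cox6b2 did pass the filter, with 60.9 ± 6.84 RPKM with BRM014 and 68.4 ± 3.3 with DMSO. Cox7a1, the muscle form of subunit 7a, had 67 ± 11.2 RPKM with DMSO, beside 436 ± 104 for the widely used Cox7a2. Of the 3 genes that encode the identical mature subunit c of ATP synthase, Atp5g2 and Atp5g3 had 98.1 ± 11.1 and 76.3 ± 15.1 RPKM with DMSO, which overlap within their SDs, and Atp5g1 had 23.1 ± 1.33. All 37 genes of mitochondrial DNA, with its 13 respiratory subunits, had 0 counts in every library, so the mitochondrially encoded subunits are not measured in these counts.

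**Figure D1:**
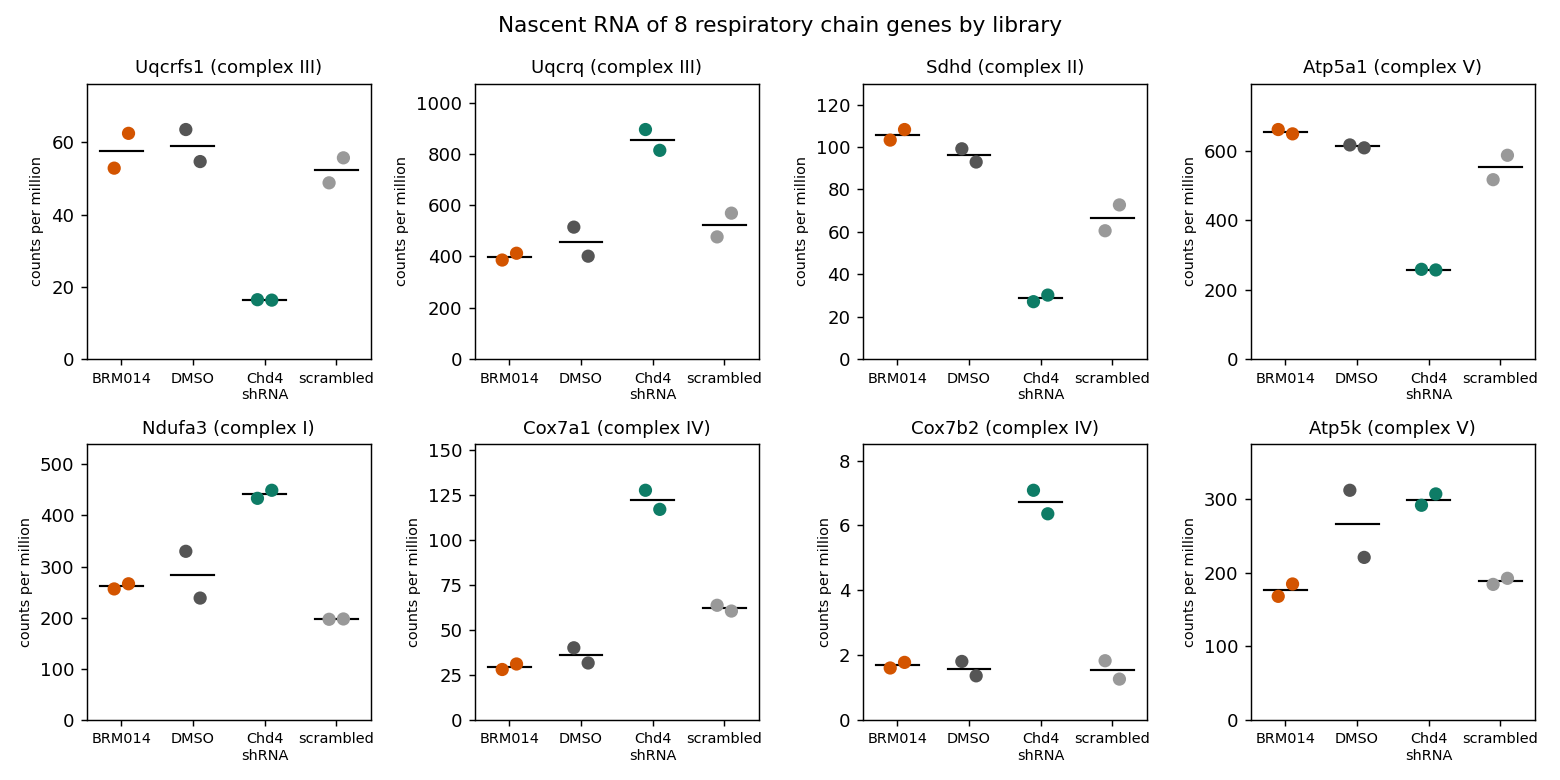
Nascent RNA of 8 respiratory chain genes, in CPM of the scaled library size (y axis from 0), with a point for each library and a line for the group mean; groups run from BRM014, DMSO and Chd4 shRNA to scrambled shRNA. Uqcrfs1, Sdhd and Atp5a1 lie lowest with Chd4 shRNA, Uqcrq, Ndufa3, Cox7a1 and Cox7b2 lie highest there, and Atp5k is lower with BRM014 than with DMSO, all on the scale of expressed genes.

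With BRM014 the respiratory chain genes stayed close to their levels with DMSO. Among all 8272 expressed genes, edgeR's quasi-likelihood test called 3.12% higher and 4.63% lower (7.75% in all) at a Benjamini-Hochberg adjusted p under 0.05. Of the 92 expressed respiratory chain genes, 0 were called higher and 1 was called lower, with 1 higher and 2 lower at an unadjusted p under 0.05, and DESeq2 also called 0 higher and 1 lower. The median log2 fold change was -0.05, within a range of -0.60 to 0.38. Both BRM014 libraries lay above both DMSO libraries in 12 genes and below both in 9, where 25.1% and 23.4% of all expressed genes did so.

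The gene called lower was Atp5k, which encodes the small subunit e of the membrane part of ATP synthase and lies at chr5:108433244-108434448 (minus strand). It had 168 and 185 CPM with BRM014 and 312 and 221 CPM with DMSO. The groups did not overlap, but the 2 DMSO libraries stood further apart from each other than the lower of them did from BRM014. The log2 fold change was -0.60 ± 0.15 (SE; edgeR adjusted p = 0.0159). Without DMSO replicate 1, the higher of both, it was -0.34 with an adjusted p of 0.122, without BRM014 replicate 1 it was -0.53 with 0.18, and without BRM014 replicate 2 it was -0.65 with 0.117. The call was also lost with little change in size without a filter on low counts (-0.60, adjusted p = 0.101) and with TMM over all genes that pass that filter (-0.55, adjusted p = 0.0638). On the 3 ERCC scales the value was -0.38 to -0.57 with an adjusted p of 0.93 to 1. Ndufaf7, an assembly factor of complex I that in human cells is a methyltransferase, had the most positive value: 24.4 and 22.9 CPM with BRM014 and 19.3 and 17 with DMSO, a log2 fold change of 0.38 ± 0.12 that missed the threshold (adjusted p = 0.0585). Without DMSO replicate 1 it passed, at 0.45 (adjusted p = 0.0302).

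Both DMSO libraries differed from each other in these genes. DMSO replicate 1 exceeded DMSO replicate 2 in 83 of the 92 genes, with a median ratio of 1.21, and in 63 genes the BRM014 mean fell between both DMSO libraries. Leaving out DMSO replicate 2 moved the log2 fold change of Ndufa1 with BRM014 from -0.25 to -0.52 and brought that of Cox7a1 to -0.44. Relative to all expressed genes, the medians of complexes I and IV were then -0.21 and -0.23. The summed level of complex I was 4994 and 5399.8 CPM with BRM014 against 5903 and 4756 CPM with DMSO, and that of complex IV 5219 and 5690.0 against 6321 and 5003 CPM. Complex III had 1946 and 2020.0 CPM with BRM014 and 2438 and 1894 CPM with DMSO. The sums of complexes I, III, IV and V with BRM014 all lay between those of both DMSO libraries, and in complex II both groups overlapped as well.

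**Figure D2:**
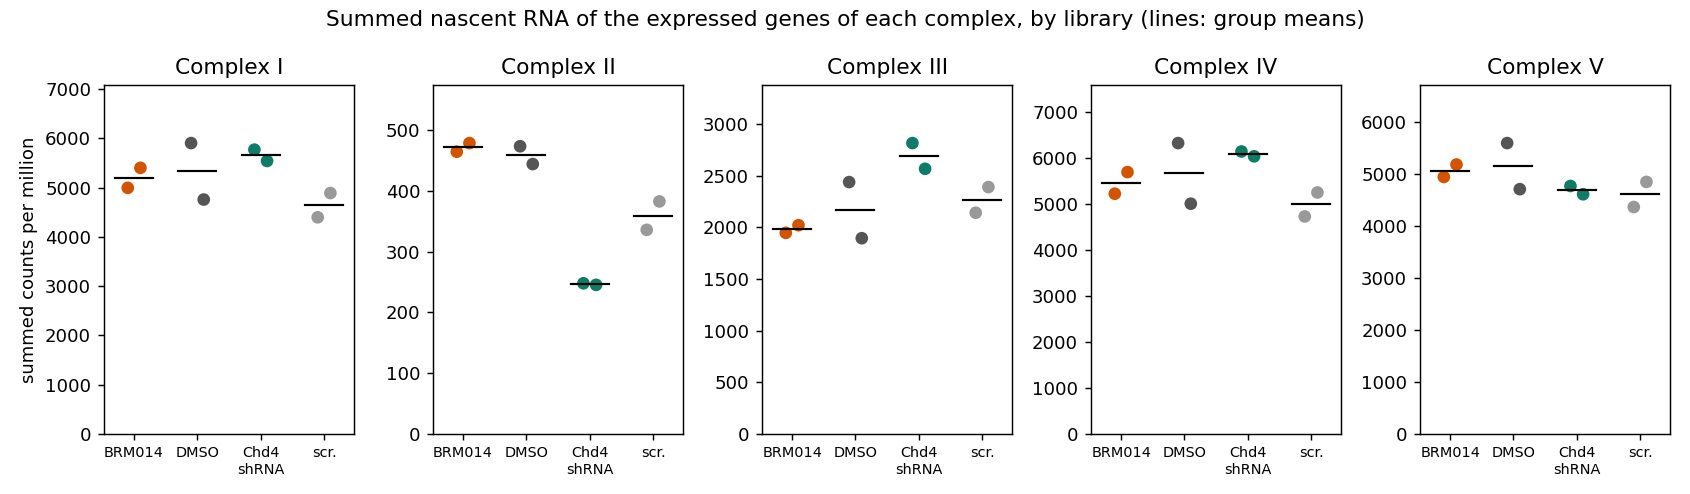
Summed nascent RNA of the expressed genes of each complex, in CPM (y axes from 0), with a point for each library and a line for each group mean. With BRM014 complexes I, III, IV and V lie within the range of both DMSO libraries, and complex II is at 248 and 245 CPM with Chd4 shRNA against 336 and 383 CPM with scrambled shRNA.

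With Chd4 shRNA, respiratory chain genes were called in both directions. Core subunits of complex III, the large head subunits of complex V, the membrane anchors of complex II and some core subunits of complex I were lower than in the scrambled libraries, while some small accessory subunits of complexes I, III, IV and V were higher. Of the 92 expressed genes, 24 (26.1%) were called higher and 19 (20.7%) lower, by edgeR's quasi-likelihood test with Benjamini-Hochberg adjustment over all expressed genes. Among all expressed genes the shares were 19.4% higher and 20.5% lower (39.9% in all). On this scale and without background subtraction they were close to those of the chain, whose median was 0.09 on the log2 scale. The log2 fold changes also spread about as widely in the chain as elsewhere, with an SD across genes of 0.60 over the 92 and 0.65 over all expressed genes. Both libraries labelled Chd4 shRNA lay above both scrambled libraries in 44 genes and below both in 29, beside 35.8% and 37% of all expressed genes. DESeq2 called 25 higher and 19 lower, with all 43 genes of the edgeR calls among them.

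The split into higher and lower depends on the scale. Plain ERCC sums as library sizes gave 40 higher and 1 lower, TMM over the 4 abundant ERCC RNAs 30 and 1, TMM-scaled ERCC totals 1 and 0, and TMM over all genes that pass the low count filter 2 and 89. Subtraction of the background from the counts gave 37 higher and 16 lower. The distance between genes of the same library hardly depends on the scale, because new library sizes shift all genes about alike. The other scales therefore do not test it. The ends of the ranges below came from leaving out 1 library, apart from 0.55, which came from the filter at 30-fold background. The median of the accessory subunits of complex III exceeded that of its core by 1.16 on the log2 scale (1.03 to 1.30 over 21 settings). In ATP synthase the small membrane subunits exceeded the F1 head by 1.39 (1.32 to 1.44), and in complex I accessory subunits exceeded the core by 0.35 (0.30 to 0.55). With BRM014 the same distances were -0.07, -0.20 and -0.13. They were above 0 only without DMSO replicate 1, at 0.048, 0.050 and 0.036, and below 0 in all other settings.

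**Figure D3:**
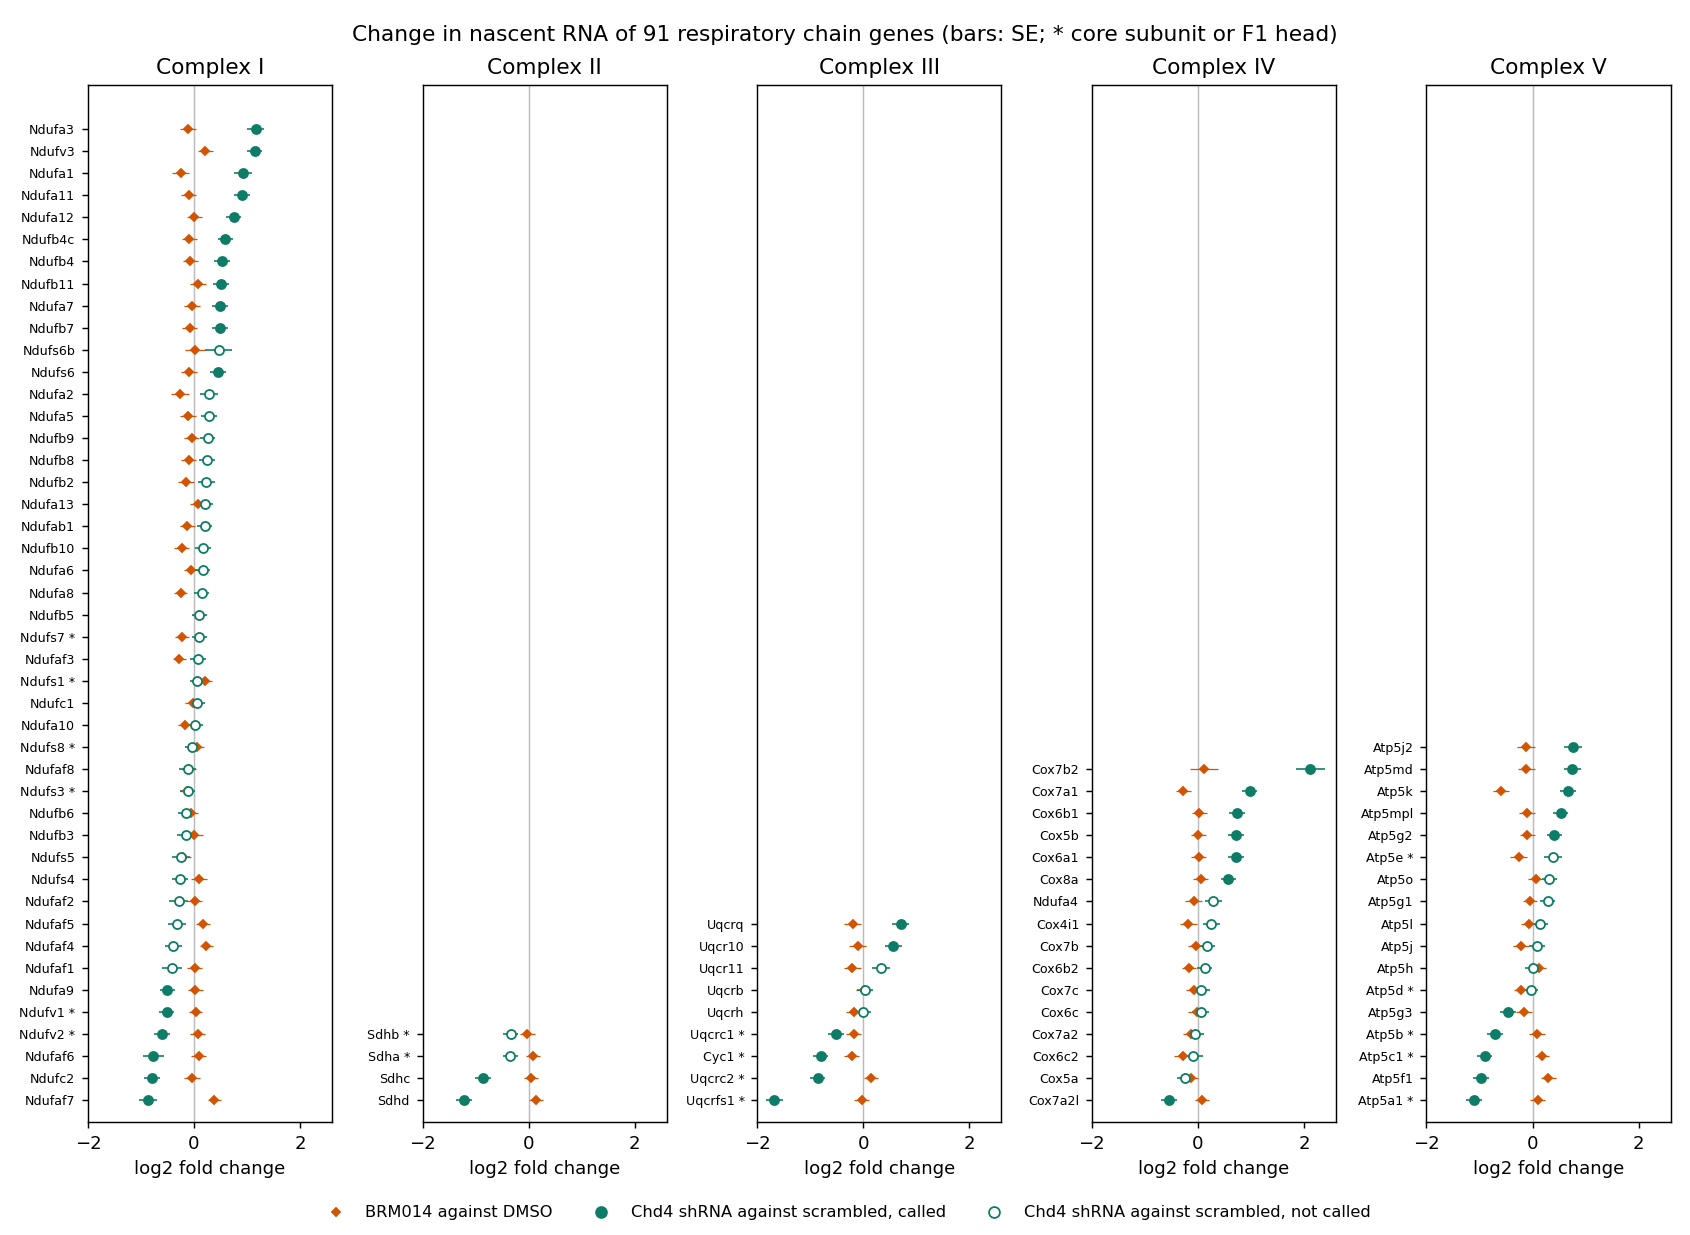
Log2 fold change of 91 of the 92 expressed genes, by complex, for BRM014 against DMSO (diamonds) and Chd4 shRNA against scrambled shRNA (circles, filled where called), with SE bars; an asterisk marks core subunits and the F1 head. On the scale of expressed genes the Chd4 shRNA values run from -1.67 for Uqcrfs1 to 2.12 for Cox7b2 with core subunits towards the lower end, and TMM over all genes that pass the low count filter puts all named genes plotted here but Cox7b2 below 0.

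In complex III the 4 core genes were all called lower and had a median of -0.83 on the log2 scale, while 2 of 5 accessory genes were called higher and 0 lower, with a median of 0.34. Uqcrfs1, the Rieske iron-sulfur protein that takes electrons from ubiquinol, lies at chr13:30540308-30545362 (minus strand). It had 16.4 and 16.3 CPM with Chd4 shRNA and 48.8 and 55.7 CPM with scrambled shRNA. Libraries of the same label were close together, the groups did not overlap, and the log2 fold change of -1.67 ± 0.16 (adjusted p = 3.04e-08) was the lowest of all 92 genes. Cytochrome c1, encoded by Cyc1 at chr15:76343523-76346260 (plus strand), passes these electrons on to cytochrome c and had 77.9 and 71.6 CPM with Chd4 shRNA against 121 and 139 CPM with scrambled shRNA (-0.80 ± 0.14, adjusted p = 9.37e-05). The core proteins Uqcrc2 and Uqcrc1, which form the matrix part of the complex, changed by -0.86 ± 0.14 and -0.52 ± 0.15 (adjusted p = 4.64e-05 and 0.00746). For Uqcrc1 the call was lost without Chd4 shRNA replicate r4 (-0.40, adjusted p = 0.14) and without scrambled replicate r3 (-0.45, adjusted p = 0.0668), and with background subtraction (-0.34, adjusted p = 0.0744).

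Of the accessory subunits of complex III, Uqcrq and Uqcr10 were called higher. Uqcrq, a small subunit bound to cytochrome b, lies at chr11:53427922-53430831 (minus strand) and had 895 and 814 CPM with Chd4 shRNA against 476 and 569 CPM with scrambled shRNA. The lower library labelled Chd4 shRNA was above the higher scrambled one, with a log2 fold change of 0.71 ± 0.16 (adjusted p = 0.00109). Uqcr10, subunit 9, rose by 0.57 ± 0.16 (adjusted p = 0.00688), a call that was lost without Chd4 shRNA replicate r1 (0.51, adjusted p = 0.0679) or without scrambled replicate r1 (0.52, adjusted p = 0.0511). Uqcr11, Uqcrb and Uqcrh had values of 0.34, 0.03 and 0.00 and were not called, although Uqcr11 was called higher after background subtraction. Complex III as a whole had 2816 and 2566 CPM with Chd4 shRNA and 2141 and 2389.6 CPM with scrambled shRNA.

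Complex II, succinate dehydrogenase, was the complex with the lowest median, -0.60. It is also the enzyme of the citric acid cycle that oxidises succinate, and it has no subunit from mitochondrial DNA. Its membrane anchors, which bind ubiquinone, were both called lower. Sdhd at chr9:50596357-50603812 (minus strand) had 27.1 and 30.2 CPM with Chd4 shRNA and 60.5 and 72.7 CPM with scrambled shRNA, with both libraries labelled Chd4 shRNA far below both scrambled ones (-1.22 ± 0.15, adjusted p = 1.46e-06). Sdhc at chr1:171127165-171150603 (minus strand) had 29.6 and 30.3 CPM with Chd4 shRNA against 49.2 and 59.4 CPM with scrambled shRNA (-0.86 ± 0.15, adjusted p = 7.06e-05). The catalytic subunits had smaller differences that missed the threshold in the main fit. Sdha, the flavoprotein, gave -0.35 ± 0.14 (adjusted p = 0.0535) and Sdhb, the iron-sulfur subunit, -0.34 ± 0.15 (adjusted p = 0.0636). Both were called lower without a filter on low counts (adjusted p = 0.039 and 0.0439). They were also called with a filter of 50 counts in at least 2 libraries (adjusted p = 0.0352 and 0.0392). In all 4 genes both libraries labelled Chd4 shRNA lay below both scrambled libraries, as they did in 37% of all expressed genes. The sum over the complex was 248 and 245 CPM against 336 and 383 CPM.

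In complex I, 11 of 46 expressed genes were called higher (23.9%, against 19.4% of all expressed genes) and 7 lower (15.2%, against 20.5%), shares near those of all expressed genes. Of 29 accessory genes 10 rose and 2 fell. Of the core genes, Ndufv1, which binds NADH and the flavin, changed by -0.52 ± 0.14 (adjusted p = 0.00508), and its partner Ndufv2 by -0.61 ± 0.15 (adjusted p = 0.00232). The Ndufv1 call was lost without Chd4 shRNA replicate r4 (-0.43, adjusted p = 0.0953). The Ndufv2 call was lost without Chd4 shRNA replicate r1 (-0.45, adjusted p = 0.0792) and without scrambled replicate r3 (-0.46, adjusted p = 0.0574). Ndufs1 and Ndufs7, which also carry iron-sulfur clusters, had 0.06 and 0.10 and were not called. Ndufs1 overlaps Eef1b2 on the opposite strand, a gene with a mean of 8641 counts against 434 for Ndufs1, and the strand that was counted is not given in the sources used here, so its value is uncertain.

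The accessory genes of complex I that rose were led by Ndufa3 and Ndufv3. Ndufa3, a single-pass membrane subunit, lies at chr7:3617373-3620327 (plus strand) and had 434 and 449 CPM with Chd4 shRNA against 197 and 197 CPM with scrambled shRNA (1.16 ± 0.16, adjusted p = 3.91e-06). Ndufv3, a small subunit of the NADH-oxidising arm, had 131 and 129 CPM with Chd4 shRNA and 59.3 and 57.8 CPM with scrambled shRNA (1.15 ± 0.14, adjusted p = 1.33e-06). In both genes the level with Chd4 shRNA was more than double that of either scrambled library. Ndufa1 on the X chromosome and Ndufa11, both needed for assembly of the membrane arm, rose by 0.93 ± 0.16 and 0.90 ± 0.15 (adjusted p = 0.000107 and 4.84e-05). Ndufc2 was an accessory subunit that fell, with 73.3 and 76 CPM with Chd4 shRNA and 114 and 144 CPM with scrambled shRNA (-0.79 ± 0.16, adjusted p = 0.000329).

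Of the 8 assembly factors of complex I, 0 were called higher (against 19.4% of all expressed genes) and 2 lower (25%, against 20.5%), with a median of -0.36. Ndufaf7 had 9.02 and 8.48 CPM with Chd4 shRNA and 15.7 and 16.1 CPM with scrambled shRNA (-0.86 ± 0.17, adjusted p = 0.000353), so the groups did not overlap. Background alone would give 45.3% of its counts with Chd4 shRNA, the highest share of any expressed member. Ndufaf6 was the other factor called lower, at -0.77, and Ndufaf3 had 0.07, the one positive value among the 8. Ndufaf3, with a mean of 235 counts, overlaps Impdh2 (1103.5) on the opposite strand, and Ndufaf2 (185) overlaps Smim15 (205). The counted strand is not given, so the values of Ndufaf3 and Ndufaf2 are uncertain.

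Complex IV leaned the other way, with 6 of 16 expressed genes called higher (37.5%, against 19.4% of all expressed genes), 1 lower (6.25%, against 20.5%) and a median of 0.21. Its catalytic core is encoded in mitochondrial DNA, so all nuclear genes of this complex are accessory subunits or isoforms of them. Cox5b, the zinc-binding subunit, lies at chr1:36691449-36693681 (plus strand) and had 444 and 467 CPM with Chd4 shRNA against 264 and 288 CPM with scrambled shRNA (0.72 ± 0.15, adjusted p = 0.000414). Cox6a1, which sits at the dimer interface, had 279.9 and 283 CPM with Chd4 shRNA and 162 and 179.8 CPM with scrambled shRNA (0.72 ± 0.14, adjusted p = 0.000356). In both genes every library labelled Chd4 shRNA exceeded both scrambled ones. Cox6b1 and Cox8a rose by 0.75 ± 0.15 and 0.57 ± 0.15 (adjusted p = 0.000417 and 0.00291). Cox4i1 and Cox5a, which join the complex early in assembly, had 0.25 ± 0.16 and -0.25 ± 0.15 and were not called (adjusted p = 0.22 and 0.178). After background subtraction Cox4i1 was called higher (0.48, adjusted p = 0.0165).

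Tissue isoforms of complex IV had the most positive values. Cox7b2, a form of subunit 7b known from testis, lies at chr5:71442824-71548205 (minus strand) and had 7.09 and 6.36 CPM with Chd4 shRNA against 1.82 and 1.26 CPM with scrambled shRNA. The raw counts were 44 and 39 with Chd4 shRNA and 16 and 11 with scrambled shRNA, so the rise of 2.12 ± 0.27 (adjusted p = 2.31e-06) rests on few reads, of which background would give 9.13%. Cox7a1 at chr7:30184144-30186078 (plus strand) had 128 and 117 CPM with Chd4 shRNA and 63.7 and 60.5 CPM with scrambled shRNA (0.98 ± 0.14, adjusted p = 9.29e-06), and its background share was 0.495%. The widely used forms Cox7b and Cox7a2 gave 0.16 ± 0.16 and -0.05 ± 0.16 and were not called, nor was the testis form Cox6b2 at 0.13 ± 0.14. After background subtraction, however, Cox7b was called higher (0.40, adjusted p = 0.0408). Cox7a2l, which joins complexes III and IV into supercomplexes and was the gene called lower here, had 65.5 and 58.2 CPM with Chd4 shRNA and 82.2 and 98.5 CPM with scrambled shRNA (-0.55 ± 0.14, adjusted p = 0.00408). This call was lost without Chd4 shRNA replicate r4 (-0.46, adjusted p = 0.0778), without scrambled replicate r3 (-0.41, adjusted p = 0.0755) and with background subtraction (-0.35, adjusted p = 0.0595).

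In ATP synthase 5 of 17 genes were called higher and 5 lower (29.4% each, against 19.4% and 20.5% of all expressed genes). The F1 head, where ATP is made, was lower in its 3 large subunits: alpha, beta and gamma. Atp5a1 (alpha) at chr18:77773729-77782869 (plus strand) had 258 and 257 CPM with Chd4 shRNA against 516 and 587 CPM with scrambled shRNA (-1.10 ± 0.15, adjusted p = 4.31e-06). Atp5b (beta), which carries the catalytic sites, had 528 and 522 CPM with Chd4 shRNA and 807 and 917 CPM with scrambled shRNA (-0.72 ± 0.15, adjusted p = 0.000647). Both libraries labelled Chd4 shRNA were below both scrambled libraries in each gene. Atp5c1 (gamma), the rotating shaft, changed by -0.90 ± 0.14 (adjusted p = 3.02e-05), and Atp5f1, subunit b of the peripheral stalk, by -0.96 ± 0.15 (adjusted p = 2.51e-05). The small head subunits Atp5d (delta) and Atp5e (epsilon) had -0.04 and 0.38 and were not called, although Atp5e was called higher after background subtraction.

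Small membrane subunits of ATP synthase were higher, 4 of 5 by the test and 0 lower, with a median of 0.67. They stabilise the dimers that shape the cristae or sit beside the c ring. Atp5k had 291 and 307 CPM with Chd4 shRNA and 184 and 192 CPM with scrambled shRNA (0.67 ± 0.16, adjusted p = 0.00146), with no overlap of the groups. Atp5j2 (subunit f), Atp5md and Atp5mpl rose by 0.76 ± 0.17, 0.75 ± 0.16 and 0.53 ± 0.15 (adjusted p = 0.0011, 0.000755 and 0.00659). The 3 genes for subunit c went separate ways. Atp5g2 had 0.41 ± 0.14 (adjusted p = 0.0241), Atp5g3 -0.46 ± 0.15 (adjusted p = 0.0155) and Atp5g1 0.28 ± 0.14 (adjusted p = 0.100). After background subtraction Atp5g1 was called higher (0.47, adjusted p = 0.00796).

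Both calls in the c ring depended on single libraries. For Atp5g2 the call was lost without Chd4 shRNA replicate r1 (0.33, adjusted p = 0.174), without scrambled replicate r1 (0.39, adjusted p = 0.0964) and without scrambled replicate r3 (0.46, adjusted p = 0.0612). For Atp5g3 it was lost without Chd4 shRNA replicate r1 (-0.44, adjusted p = 0.0988), without Chd4 shRNA replicate r4 (-0.46, adjusted p = 0.0932), without scrambled replicate r3 (-0.43, adjusted p = 0.0836) and with background subtraction (-0.25, adjusted p = 0.186). Summed over complex V, 4774 and 4614 CPM with Chd4 shRNA stood beside 4368 and 4852 CPM with scrambled shRNA, which overlap.

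Background was unevenly spread over these genes. It would give a median of 0.44% of the counts with Chd4 shRNA in the 24 genes called higher, 3.81% in the 19 called lower and 1.87% in the 49 not called. After subtraction of the background, 24 of the 24 higher calls and 15 of the 19 lower calls were still made. Genes called higher only after subtraction included Atp5e, Atp5g1, Cox4i1, Cox7b and Uqcr11, which gave 37 higher calls in all.

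The responses to both perturbations were then compared directly, by testing the Chd4 shRNA effect minus the BRM014 effect. In this difference 20 of the 92 genes were called positive and 18 negative, beside 15.4% and 15.4% of all expressed genes. Of the 20 positive genes 19 had been called higher with Chd4 shRNA, and of the 18 negative genes 17 had been called lower. Uqcrfs1 (-1.64 ± 0.21, adjusted p = 3.92e-06), Sdhd (-1.36 ± 0.20, 2.22e-05), Atp5f1 (-1.26 ± 0.21, 8.3e-05), Ndufaf7 (-1.24 ± 0.21, 0.000115) and Atp5a1 (-1.20 ± 0.21, 0.000139) had the smallest p among the negative genes. In Sdhd, Atp5f1 and Atp5a1 both BRM014 libraries lay above both DMSO libraries, as in 25.1% of all expressed genes, and none of these was called with BRM014. Among the positive genes the smallest p belonged to Cox7a1 (1.25 ± 0.20, adjusted p = 5.47e-05), Ndufa3 (1.28 ± 0.22, 0.000109), Atp5k (1.27 ± 0.22, 0.00014), Cox7b2 (2.01 ± 0.39, 0.000392) and Ndufa1 (1.18 ± 0.23, 0.000445).

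The counts of this comparison moved with single libraries. The number of positive genes was 11 without BRM014 replicate 1 and 33 without DMSO replicate 2, and that of negative genes was 10 without BRM014 replicate 2. Plain ERCC sums gave 21 positive and 0 negative, the 4 abundant ERCC RNAs 9 and 0, TMM-scaled ERCC totals 0 and 0, and TMM over all genes that pass the low count filter 0 and 82. Over all 8272 expressed genes the 3 ERCC scales gave, in this order, 1341 and 22, 590 and 16, and 23 and 1. TMM over all genes gave 6569 and 9721 of 35426. Treatment length and delivery also differ between both perturbations (3 h of an inhibitor against 24 h of selection after transduction), so the agents and the times cannot be told apart.

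The change with Chd4 shRNA followed the genomic span of these genes, in the direction opposite to that of other genes. Across 91 expressed genes with coordinates, Spearman's correlation of span and log2 fold change was -0.37 with Chd4 shRNA and 0.46 with BRM014, against 0.26 and 0.16 over 5167 other expressed protein-coding genes. Genes of 1 library share depth and background, so these are descriptions. Of 31 respiratory chain genes up to 5 kb long, 13 were called higher and 2 lower with Chd4 shRNA, with a median of 0.34. Among 827 other genes of that length 128 were called higher and 252 lower, with a median of -0.17. Of 11 between 20 and 50 kb, 1 was higher and 6 were lower (median -0.50). Among 1481 other genes of that length 366 were called higher and 260 lower, with a median of 0.08. Of 3 over 50 kb, 1 was higher (Cox7b2) and 0 were lower (median -0.26), so the fall did not continue there. Among 730 other genes of that length 304 were called higher and 92 lower, with a median of 0.29. The change also ran with the level: its correlation with the level per kb in control libraries was 0.38 in these genes and -0.47 in the others.

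**Figure D4:**
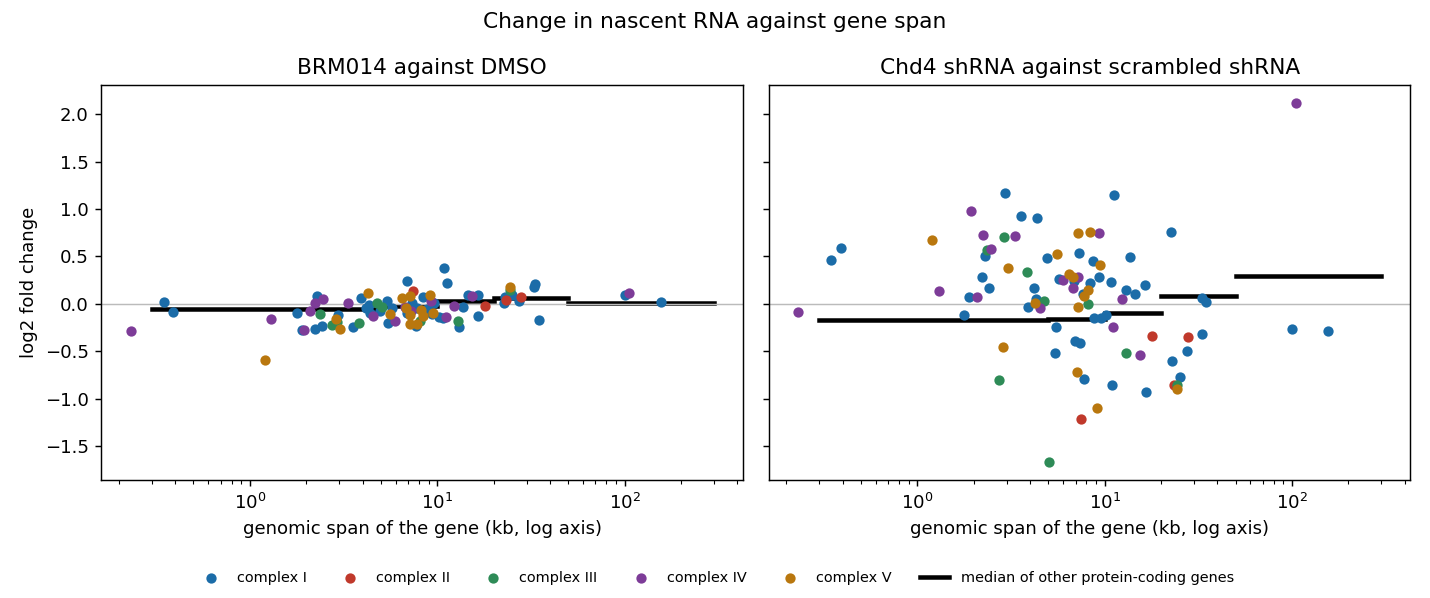
Log2 fold change of the 91 expressed genes with coordinates (points, coloured by complex) against genomic span in kb on a log axis, for BRM014 against DMSO on the left and Chd4 shRNA against scrambled shRNA on the right; black lines are medians of other expressed protein-coding genes in 5 span classes. With Chd4 shRNA, on the scale of expressed genes, the points fall from a median of 0.34 up to 5 kb to -0.50 at 20 to 50 kb while the lines rise. The 3 points over 50 kb have a median of -0.26.

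Some of these genes start back to back with another gene, and the share over all genes was not computed. Among the 97 with coordinates 27 had an annotated start on the opposite strand within 1000 bases upstream, and in 8 of them this neighbour was an expressed protein-coding gene. Sdhd and Timm8b, an import chaperone of the mitochondrial intermembrane space, start 98 bases apart. With Chd4 shRNA Sdhd fell by 1.22, whereas Timm8b had -0.01 ± 0.14 (adjusted p = 0.955). Ndufaf7 and Cebpz start 70 bases apart and had -0.86 and -0.06 ± 0.14 (adjusted p = 0.766 for Cebpz). Ndufa7 and the ribosomal gene Rps28, with starts 10 bases apart, rose by 0.49 ± 0.16 and 1.40 ± 0.17. Rps28 had a mean of 16663 counts, and reads that cross the shared start cannot be assigned without the counted strand. With Chd4 shRNA Atp5md and its neighbour Pdcd11 had 0.75 and 0.40, and Uqcr10 and Zmat5 had 0.57 and 0.39. Ndufa2 and Ik had 0.28 and 0.67, Atp5h and Kctd2 0.01 and 0.05, and Cox4i1 and Gm27021 0.25 and -0.49.

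Close copies set another limit. Ndufb4c, a copy of Ndufb4, had 41.8% to 44.7% of the Ndufb4 count in every library, Cox6c2 had 4.45% to 5.79% of Cox6c and Ndufs6b 2.15% to 3.07% of Ndufs6. The values of these copies are given as uncertain, because reads of near-identical sequence could be split between copy and parent. Ndufb1-ps was left out by its name although RefSeq lists Ndufb1-ps as a synonym of the protein-coding gene Ndufb1, and it had 792 and 726 counts with Chd4 shRNA and 1558 and 1867 with scrambled shRNA.

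Promoter windows could be matched for 75 of the 98 genes. The NRF1 letters given above occurred in 7 of them (9.33%), against 1.07% of 27025 genes with a window and 1.47% of the protein-coding ones. The ETS letters occurred in 19 (25.3%, against 9.93% and 12.9%) and the YY1 letters in 10 (13.3%, against 3.19% and 3.57%). Together, 32 genes (42.7%) had at least 1 of these motifs, against 13.4% and 16.9%. Such matches are letters in a window, not bound sites. By response to Chd4 shRNA, 11 of 21 genes called higher (52.4%), 3 of 12 called lower (25.0%) and 18 of 41 not called (43.9%) had 1 or more. Matches among the named genes that rose were NRF1 in Atp5k, Cox6a1, Ndufa11 and Atp5g2, ETS in Atp5k, Atp5md, Cox6a1, Cox6b1 and Cox8a and YY1 in Ndufa3 and Atp5j2, and among those that fell NRF1 in Uqcrc1 and ETS in Sdhd. The median GC content of the windows was 58.5% in genes called higher, 56.7% in those called lower and 59.0% in those not called.

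Genes that build, feed or regulate the chain were looked at from lists. Of 35 expressed assembly factors outside the Nduf names, 0 were called with BRM014, and with Chd4 shRNA 7 were higher and 4 lower, with a median of 0.03. Counts from these lists stand beside 19.4% higher and 20.5% lower among all expressed genes with Chd4 shRNA and 7.75% called with BRM014, so the 7 higher factors are about the share of all genes. Among them Cox19, a copper handling factor of complex IV, rose by 0.72 ± 0.15 (adjusted p = 0.000648) and Atpaf1, which assembles the F1 head, by 0.55 ± 0.15 (adjusted p = 0.00501). Pet100 and Ttc19, factors of complexes IV and III, rose by 0.51 and 0.56. Sdhaf4, which helps to assemble the flavoprotein of complex II, fell by 0.96 (adjusted p = 0.000417), with 8.7 and 11.1 CPM with Chd4 shRNA and 18 and 20.4 CPM with scrambled shRNA. Coa6, Tmem70 and Surf1, which serve complexes IV, V and IV, had -0.77, -0.74 and -0.47 and were also called lower.

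Of 10 expressed genes for electron carriers and ubiquinone synthesis, 0 were called higher and 4 lower with Chd4 shRNA. These were Cycs, the cytochrome c that links complexes III and IV (-0.49 ± 0.14, adjusted p = 0.0088), Etfa, which brings in electrons from fatty acid oxidation (-0.53 ± 0.14, adjusted p = 0.00452), Coq3 of ubiquinone synthesis (-0.56) and Dhodh of pyrimidine synthesis, which reduces ubiquinone (-0.49). With BRM014 0 of these 10 were called. Of 8 expressed genes for mitochondrial DNA and its transcripts, 1 was higher and 2 were lower with Chd4 shRNA and 0 were called with BRM014. Lrpprc, which stabilises mitochondrial mRNA, rose by 0.54 ± 0.14 (adjusted p = 0.00313), while Tfam, which packages and transcribes mitochondrial DNA, and Ssbp1, its single-strand binding protein, fell by 0.57 and 0.53 (adjusted p = 0.00452 and 0.00381). Background would give 23.1%, 26.5% and 10.5% of their counts with Chd4 shRNA.

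Transcription factors of respiratory genes were few among the expressed genes, 6 of 12 listed. With Chd4 shRNA Yy1 (0.51 ± 0.14, adjusted p = 0.00487), the cofactor Hcfc1 (0.43 ± 0.15, 0.0304) and Gabpa, the DNA-binding subunit of GABP (0.37 ± 0.15, 0.0485), were called higher and 0 lower. Their background shares with Chd4 shRNA were 22.8%, 8.83% and 22.5%. Gabpa, with a mean of 253 counts, overlaps Atp5j on the opposite strand, which had 2950. The counted strand is not given, so the value of Gabpa is uncertain. With BRM014 Sp1 was the gene called, at 65.5 and 52.7 CPM with BRM014 and 34.4 and 45.9 CPM with DMSO (0.55 ± 0.16, adjusted p = 0.0278). Nrf1 itself was below the expression filter.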

How the data were processed

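Nascent RNA of 8 libraries (4 groups of 2) was used, and 40 chromatin immunoprecipitation samples were not analysed here. The deposited values are whole-number read counts per gene and per ERCC RNA made by the authors. The tools named are Trim Galore 0.6.4, STAR 2.7.1a, featureCounts and edgeR 3.32.1, with the build mm10, per the submitters' processing notes. The counted strand and the handling of multiply aligned reads are not given in the sources used here. The directional kit is named in the labels' protocols.

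Sample labels gave the groups. Column r4 of Chd4 shRNA and column r3 of scrambled shRNA have numbers that no title carries, and only their group names placed them. Library totals were 6982354 to 17128981 counts, and intervals beyond the fitted SEs were not computed.

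All 8 libraries were fitted together with edgeR 4.0.16 (R 4.3.3, limma 3.58.1) by its quasi-likelihood F test on 8272 genes with a mean count at least 10-fold above the background per kb of exon on 1435 receptor genes. Library sizes came from TMM among these genes, p-values were adjusted over all of them (Benjamini-Hochberg), and a call means an adjusted p under 0.05. CPM and RPKM use the same sizes and the exonic length of the file. SEs derive from the F statistic. For 2 against 2 libraries the smallest p of an exact permutation test is 0.333. The code was tested on simulated data.

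Named genes were all members called with BRM014, up to 4 called members per complex and direction with Chd4 shRNA by smallest p, 5 per direction for the difference, fixed sets of catalytic subunits and isoforms, the 3 highest and lowest levels with DMSO, up to 4 list genes per direction, and Chd4. Others that appear (Uqcr11, Uqcrb, Uqcrh, Ndufaf3, Ndufaf6, Ndufa2, Ndufa7, Atp5d, Atp5e, Atp5h, Ndufa11b, Nrf1, Tubb3, Tfap2c and neighbours or copies) were named after their values were seen. The values of 1 member are not reported here. The members and lists were chosen with earlier results of these data known. Classes of subunit were set from general knowledge. Alternatives were DESeq2 1.42.0, 3 ERCC scales, TMM over all 35426 genes passing edgeR's filter, other filters, background cut-offs of 3-fold and 30-fold, background subtraction, separate fits, a robust fit, a replicate block and leaving out each library. The expressed genes that also pass that filter, and a crossed block, were added after seeing the data. Promoter windows came from RefSeq. Figures were drawn with matplotlib 3.10.9.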

Additional observations from a re-analysis of the deposited data

How the results depend on the processing

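Most results depend on the scale and on the background. With BRM014, 1 gene was called higher under the 3-fold background filter and under the crossed block (Ndufaf7), and 0 were called lower with each of the 3 ERCC scales, TMM over all genes and no filter. Without DMSO replicate 1 the medians of complexes I and IV with BRM014, relative to all expressed genes, were 0.11 and 0.11. Without DMSO replicate 2 they were -0.21 and -0.23. With Chd4 shRNA the number higher was 1 (TMM-scaled ERCC totals), 40 (plain ERCC sums), 2 (TMM over all genes), 8 (3-fold background), 43 (30-fold background) and 37 (background subtracted), and leave-one-out gave 18 to 31. The number lower was 0, 1 and 1 with the ERCC scales, 89 with TMM over all genes and 36 at 3-fold, and leave-one-out gave 14 to 22. For the difference, the number positive was 0 (TMM-scaled ERCC totals), 9 (abundant ERCC RNAs), 0 (TMM over all genes), 8 (3-fold), 44 (30-fold) and 36 (background subtracted), and leave-one-out gave 11 to 33. The number negative was 0 with all 3 ERCC scales and 82 with TMM over all genes, and leave-one-out gave 10 to 23. Over all genes tested with Chd4 shRNA, the 3-fold filter called 3931 higher and 4019 lower of 17664. The 30-fold filter called 891 and 828 of 3726, and background subtraction 1709 and 1621 of 8272. For the difference these 3 settings called 3203, 750 and 1362 genes positive. The cause was not tested.

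Medians of complexes I to V relative to all expressed genes, with Chd4 shRNA, were 0.37, -0.39, 0.21, 0.38 and 0.36 at 30-fold and 0.30, -0.51, 0.23, 0.44 and 0.32 after subtraction. Leave-one-out gave 0.072 to 0.17, -0.71 to -0.56, -0.05 to 0.0079, 0.14 to 0.29 and 0.05 to 0.25 with Chd4 shRNA, and -0.21 to 0.11, 0.032 to 0.073, -0.33 to 0.070, -0.23 to 0.11 and -0.28 to 0.10 with BRM014. Complex II with BRM014 was 0.037 on TMM-scaled ERCC totals.

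TMM over all genes turned round the Chd4 shRNA values Atp5k -0.67, Ndufv3 -0.19, Ndufa3 -0.17, Ndufa11 -0.43, Ndufa1 -0.41, Uqcrq -0.62, Uqcr10 -0.77, Cox7a1 -0.36, Cox6a1 -0.62, Cox5b -0.61, Atp5md -0.59, Atp5j2 -0.58, Atp5mpl -0.81, Ndufs1 -1.28, Ndufs7 -1.23, Cox4i1 -1.08, Atp5g1 -1.05, Atp5g2 -0.93, Cox6b1 -0.59, Cox6b2 -1.20, Cox7b -1.17, Cox8a -0.76 and Ndufa4 -1.05, and the differences Atp5k -0.12, Ndufa3 -0.10, Ndufa1 -0.21 and Cox7a1 -0.13. Plain ERCC sums turned round Ndufv2 0.036, Uqcrc1 0.064, Cox7a2l 0.047, Ndufv1 0.075 and Atp5g3 0.15, and the abundant ERCC RNAs gave Atp5g3 0.068.

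With the replicate number as a block, BRM014 gave 0 higher and 1 lower, and the difference 20 positive and 17 negative, so the block changed no BRM014 call. Deviations of BRM014 replicate 1 and DMSO replicate 1 correlated at -0.24, and with crossed numbers 1 gene was higher and 1 lower. No paired analysis was possible for Chd4 shRNA because its columns and the scrambled ones share 1 number. At 2 libraries a group and 11.9% and 13.6% background with Chd4 shRNA, small changes of low genes are not detectable.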
